A study of Drosophila melanogaster with 16 samples.

Results

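The nuclear genes for respiratory complexes II to V of Drosophila melanogaster were followed in the body-wall muscle of tumour-bearing larvae. Members were every gene whose symbol starts with SdhA to SdhD, UQCR-, Cyt-c, COX4 to COX8 or ATPsyn, a rule that reads symbols and no expression values. Of 15682 genes in the count table, 49 carried such a symbol. They comprised 30 main subunit genes (4 of complex II, 7 of complex III, 8 of complex IV and 11 of complex V) and 19 genes kept apart, which were the paralogues ending in L, known in flies mostly for expression in testis, and the testis cytochrome c gene Cyt-c-d. Another 2 symbols that fit the name rule, COX7CL and Cyt-c-p, had no row of their own in the table and were not analysed here. UQCR-11 was listed at 0 in each of the 16 libraries, as were all 13 mitochondrially encoded subunits of complexes I, III, IV and V, so 29 main subunit genes were tested.

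All larvae were of the genotype ras1 G12V;csk-/-, with no tumour-free animals among these libraries. Tumour clones were made in the eye by an eyeless-driven recombinase and expressed the activated Ras together with GFP in cells lacking csk, so the muscle itself was not the tissue that was transformed. Animals on a control diet (CD, 0.15 M sucrose) were taken at day 8, and animals on a high-sucrose diet (HSD, 1.0 M sucrose) were taken at day 12 (Early), day 14 (Mid) and day 16 (Late). Each of these 4 conditions had 4 libraries, each from pooled dissected tissue. Diet and age change together between CD and the HSD stages and cannot be told apart, whereas by the labels Early, Mid and Late differ in age alone. The study describes its replicates as biological, but the labels do not tie each pool to a culture of its own, so p-values measure the spread between these pools. Fewer muscle cells in a dissection and less RNA per muscle cell cannot be told apart in such samples.

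Complex II (succinate dehydrogenase) passes electrons from succinate to ubiquinone and is also an enzyme of the tricarboxylic acid cycle. Complex III hands electrons from ubiquinol to cytochrome c, complex IV passes them to oxygen, and both pump protons. Complex V, the ATP synthase, lets the protons return and makes ATP, which muscle uses for contraction. Most subunits are encoded in the nucleus, while a few core subunits of complexes III, IV and V are encoded by mitochondrial DNA.

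Levels are a gene's share of the TMM-scaled library total, written as CPM, and differences are log2 fold changes ± SE from edgeR's quasi-likelihood test with a Benjamini-Hochberg adjustment over all 11607 genes tested. A gene was called at an adjusted p under 0.05. Totals per library ran from 9666672 to 28698585 counts, and each tested main subunit gene was counted in every library. Sums of 16 muscle structure markers, such as myosin heavy chain and actins, ran from 25563 to 63203 CPM in CD and from 72083 to 192544 CPM in Early. They ran from 17754 to 48022 CPM in Mid and from 8680 to 21509 CPM in Late, where 10 of the 16 markers had fallen against CD (median log2 fold change −1.38). The muscle list had the highest sum of the 9 marker lists in 14 libraries, and in the other 2, Late 1 and Late 3, the fat body list did, at 22086 and 35503 CPM. Against CD at Late 21.7% of all genes were called, with 1627 of 11607 called higher and 7.70% called lower. There, 3 of 7 tracheal, 1 of 9 fat body and 1 of 9 nervous system markers were higher. The fat body and nervous system counts are near the share of all genes called higher. Of 8 haemocyte markers 2 were higher and 1 was lower, and 1 of 10 gut and 3 of 7 salivary gland markers were lower. The part of other tissues in the values below was not tested.

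The subunit genes of complexes II to V were highest in Early and lowest in Late. By mean CPM, all 29 were highest in Early, and 26 were lowest in Late. The other 3, SdhA, Cyt-c1 and UQCR-C1, were lowest in CD. In the CD libraries the 29 genes summed to 4663, 4396, 5905 and 7512 CPM, and in Early to 21495, 8534, 8883 and 10979 CPM. The Mid libraries gave 5251, 3574, 5579 and 4945 CPM, and the Late libraries 4094, 3189, 3470 and 4066 CPM. All 4 Early libraries lay above every other library, all 4 Late libraries lay below all 4 CD libraries, and Mid overlapped both CD and Late.

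**Figure D1:**
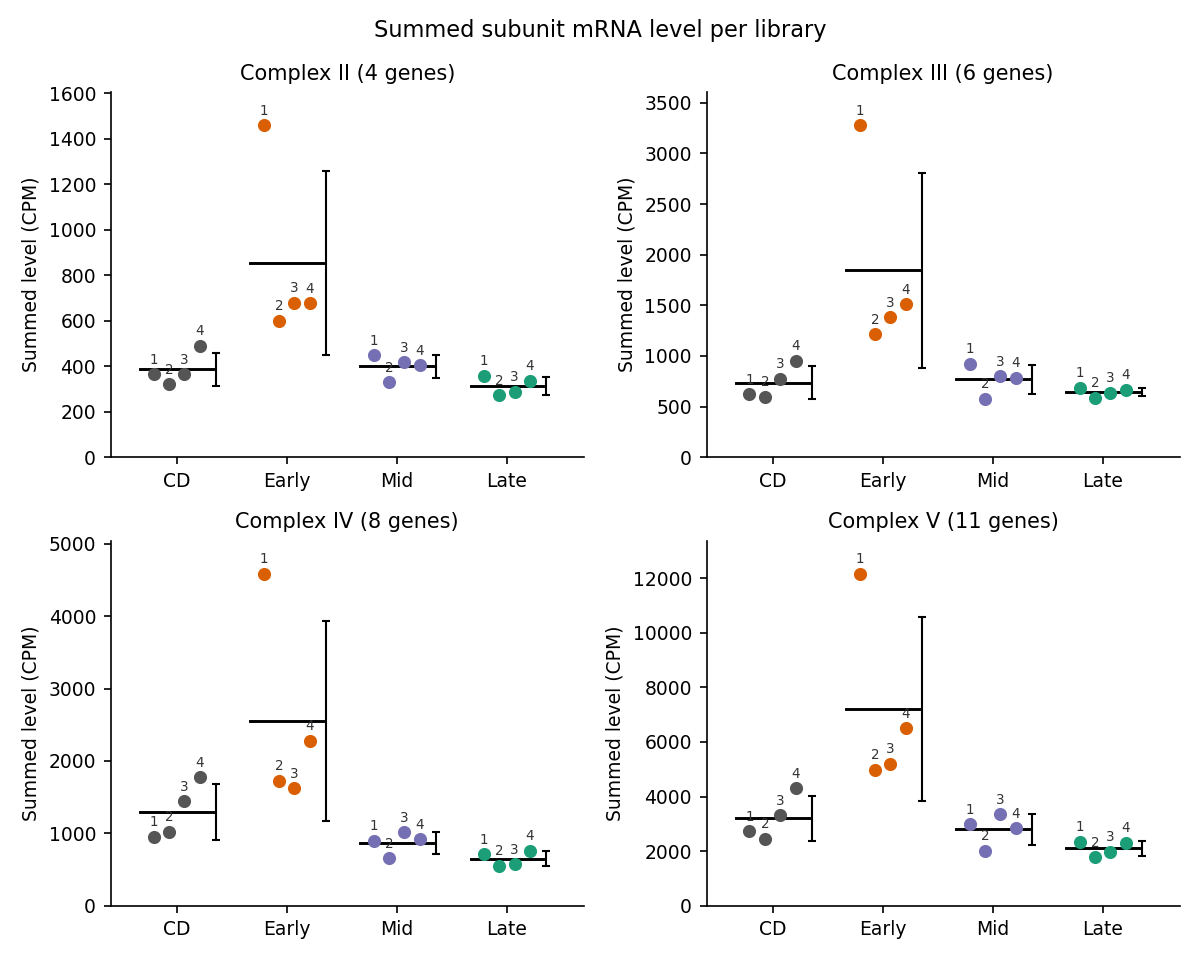
Summed CPM of the main subunit genes of each complex in each of the 16 libraries (points, numbered by replicate), with the mean (line) and SD (bar) of 4 libraries a condition. The 4 Early libraries are the highest in complexes II, III and V, and Early 1 stands far above the other 3 in all 4 complexes. The Late sums of complex IV, from 553 to 761 CPM, lie below all CD sums, which start at 952 CPM.

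At day 12 of HSD feeding the respiratory genes were higher than in CD. Of the 29 tested, 19 rose and none fell, and all 29 had a positive log2 fold change, with a median of 1.03 against −0.01 over all genes tested. Over all genes, 9.14% were called in this comparison, and 6.44% were called higher. In 15 members every Early library lay above every CD library, as did 9.16% of all genes. The count was 5 without Early 1 or without CD 2, 6 without CD 3, and 8 without CD 1 or without Early 4, against 19 with all of them, and it was 3 with a fit to only the 8 libraries compared. In these fits fewer of all genes were called as well, from 2.36% to 7.56%. The members' median was 0.55 without Early 1 and lay between 0.93 and 1.04 in the other 5 fits. DESeq2's Wald test called 25 of the 29 higher, with 13.2% of all genes called.

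Within the Early group, Early 1 had the highest level of all 29 members among the 16 libraries, at 1.67 to 3.003 times the mean of the other Early libraries. Without it the median log2 fold change against CD was 0.55. The muscle marker sum of Early 1, 192544 CPM, was likewise the highest. Markers of the salivary gland summed to 1389 CPM in Early 2 and to 222 CPM in Early 4 but to between 4.78 and 111 CPM in the other 14 libraries, and 4 of 7 tracheal markers rose at Early. Their part in the rise of the respiratory genes was not tested.

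In complex II, 2 of 4 genes rose at Early. SdhA, the flavoprotein that oxidises succinate, was at 144, 114, 95.5 and 144 CPM in CD and at 466, 243, 321 and 270.19 CPM in Early. The groups did not overlap, and SdhA rose by 1.39 ± 0.21 (adjusted p = 0.00449). SdhB, the iron-sulphur subunit, was at 101, 98.9, 104 and 137 CPM in CD and at 406, 152, 171 and 169.7 CPM in Early, again without overlap, and rose by 1.03 ± 0.26 (adjusted p = 0.0251). The membrane anchors SdhC and SdhD had log2 fold changes of 1.08 ± 0.35 (adjusted p = 0.0684) and 0.92 ± 0.29 (adjusted p = 0.0599), with overlapping groups.

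Complex III held the largest and some of the smallest differences at Early. Cyt-c1, the haem-bearing subunit that reduces cytochrome c, was at 79.3, 78.6, 86.9 and 147 CPM in CD and at 619, 215, 257 and 294 CPM in Early. It rose by 1.82 ± 0.31 (adjusted p = 0.00608), the largest change among the members, with no overlap between the groups. The core proteins UQCR-C1 and UQCR-C2 rose by 1.56 ± 0.31 (adjusted p = 0.00967) and 1.32 ± 0.28 (adjusted p = 0.0117). UQCR-C1 was at 208, 156, 230.5 and 263 CPM in CD and at 1209, 401, 496 and 427 CPM in Early. The small subunit gene UQCR-14 overlapped between the groups, at 90.7, 105, 138 and 140.4 CPM in CD and 288, 130.1, 129 and 197 CPM in Early, and its log2 fold change was 0.65 ± 0.25 (adjusted p = 0.116).

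In complex IV, 4 of 8 genes rose at Early (COX5B, COX6B, COX7A and COX7C), and the log2 fold changes of all 8 lay between 0.89 and 1.08. COX7A, a small nuclear-encoded subunit, was at 169, 172, 239 and 275 CPM in CD and at 627, 276, 267 and 406 CPM in Early. The lowest Early library lay under the highest CD library, and COX7A rose by 0.89 ± 0.26 (adjusted p = 0.0474). COX4 and COX5A had log2 fold changes of 1.02 ± 0.32 (adjusted p = 0.0639) and 0.91 ± 0.33 (adjusted p = 0.0973).

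In complex V, 9 of 11 genes rose at Early. ATPsynC, whose product forms the rotating ring in the membrane, was at 627, 525, 529 and 893 CPM in CD and at 3041, 1264, 1359 and 1741 CPM in Early. The groups did not overlap, and ATPsynC rose by 1.52 ± 0.28 (adjusted p = 0.00801). ATPsynbeta, the catalytic subunit, was at 862, 746, 1008 and 1156 CPM in CD and at 3109.9, 1437, 1538 and 1766 CPM in Early, without overlap, and rose by 1.06 ± 0.25 (adjusted p = 0.0178). ATPsyngamma, the central stalk, rose by 1.22 ± 0.28 (adjusted p = 0.0162). The 2 not called were ATPsyndelta (1.02 ± 0.31, adjusted p = 0.0518) and ATPsynG (0.61 ± 0.29, adjusted p = 0.216), a subunit of the membrane part of the enzyme.

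**Figure D2:**
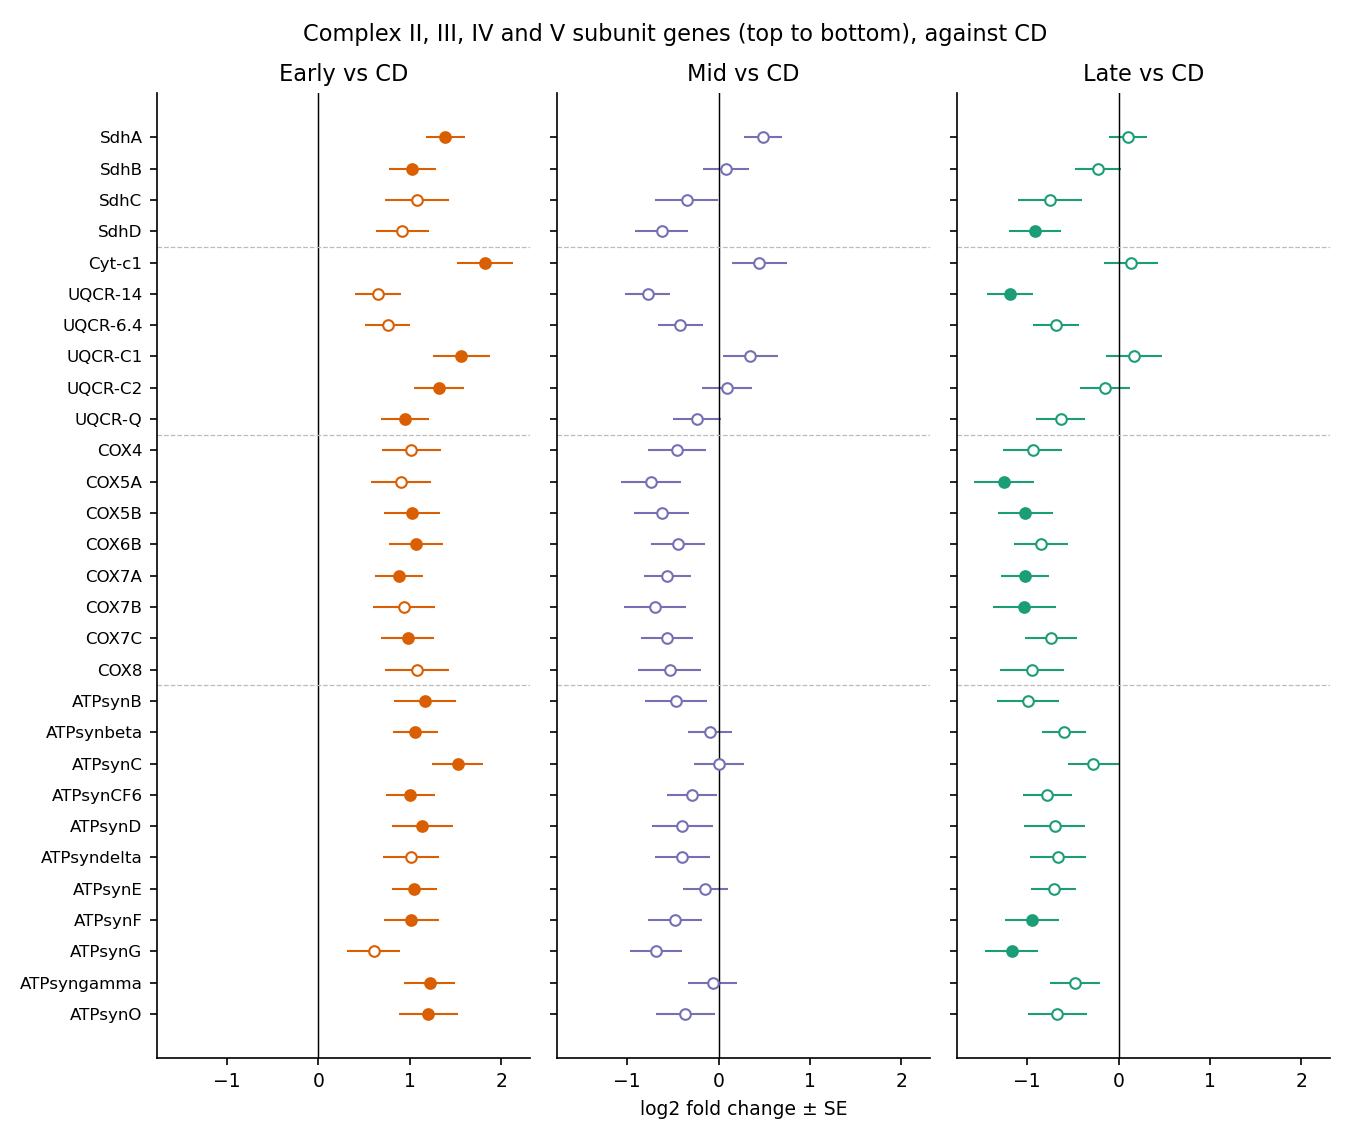
Log2 fold change ± SE (horizontal axis) of each of the 29 tested genes against CD at Early, Mid and Late; filled points were called at an adjusted p under 0.05, and dashed lines part the complexes. All points are above 0 at Early, where 19 are filled; none is filled at Mid; 8 are filled at Late, all below 0, while SdhA, Cyt-c1 and UQCR-C1 lie slightly above 0 (with upper-quartile scaling, SdhA and Cyt-c1 lie slightly below).

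At day 14 the respiratory genes were back near or under the CD level. None of the 29 was called against CD by edgeR, 6 had an unadjusted p under 0.05, and DESeq2's Wald test called 1. Over all genes 6.32% were called. The median log2 fold change of the members was −0.40, with values from −0.78 (UQCR-14) to 0.49 (SdhA). Against Early, 26 of 29 fell, where 2.09% of all genes were called and 1.82% were called lower. The median was −1.43, and in all 29 every Mid library lay below every Early library, as in 6.72% of all genes. The 3 not called were SdhB, SdhC and UQCR-C1. All 29 had an unadjusted p under 0.05. Without Early 1, without Early 4, without any single Mid library, or in a fit to only the 8 libraries compared, edgeR called no gene of the whole table and so no member. In those fits all 29 members still had an unadjusted p under 0.05, and their median lay between −1.47 and −0.96.

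At day 16 the members were compared with Early, with Mid and with CD. Between Late and Early all 29 members fell, with log2 fold changes from −2.16 (COX5A) to −1.25 (SdhB), a median of −1.80 and adjusted p from 0.000704 to 0.00583. Over all genes 20.2% were called, and 10.1% were called lower. In all 29 members the Late libraries lay below the Early libraries, as in 11.8% of all genes. The count stayed at 29 when any single library was left out, Early 1 included, and then the median lay between −1.92 and −1.39. Between Late and Mid no member was called by edgeR or by DESeq2's Wald test, and 1 had an unadjusted p under 0.05, with 0.190% of all genes called and a median of −0.40 for the members.

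Against CD, 8 of the 29 fell at Late and none rose, where 21.7% of all genes were called and 7.70% were called lower. These were SdhD, UQCR-14, COX5A, COX5B, COX7A, COX7B, ATPsynF and ATPsynG. The median of the 29 was −0.74 against −0.08 over all genes tested, and in 17 the Late libraries lay below all CD libraries, as in 8.99% of all genes. A further 5 members (COX4, COX6B, ATPsynB, ATPsynCF6 and ATPsynE) had an adjusted p between 0.0501 and 0.0538. The count of 8 accordingly moved with small changes. It was 2 without Late 3, 3 without Late 2, 4 without CD 4, 5 without CD 3 or Late 1, and 13 without CD 1, with 13.2% to 23.0% of all genes called and a median of the members between −0.87 and −0.60. It was 18 with upper-quartile scaling, and 18 with DESeq2's Wald test, where 23.3% and 23.2% of all genes were called. Upper-quartile scaling also shifted the median of all genes from −0.08 to −0.24, and relative to that median the members' median was −0.66 under either scaling.

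The members differed most among themselves in this comparison, and complex IV held the lowest values. Medians were −0.98 for complex IV (4 of 8 fell), −0.70 for complex V (2 of 11), −0.49 for complex II (1 of 4) and −0.39 for complex III (1 of 6). COX5A was at 162, 207, 299 and 328 CPM in CD, at 157, 110.4, 178 and 151 CPM in Mid and at 117, 80.5, 88.6 and 132 CPM in Late. Late did not overlap CD, and COX5A fell by 1.25 on the log2 scale (SE 0.33, adjusted p = 0.0138). COX7A was at 111, 94.4, 87.6 and 126 CPM in Late, below its CD range of 169 to 275 CPM, and fell by 1.03 on the log2 scale (SE 0.26, adjusted p = 0.0119).

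In complex III the small subunits had lower log2 fold changes than the large ones at Late, as they had at Early and Mid. UQCR-14 was at 56.5, 42.1, 45.1 and 63.8 CPM in Late, below all its CD values, and fell by 1.19 on the log2 scale (SE 0.25, adjusted p = 0.00411), the smallest p among the members. UQCR-C1 was at 263.5, 243, 235 and 223 CPM in Late and overlapped its CD range of 156 to 262.9 CPM. Its log2 fold change was 0.17 ± 0.30 (adjusted p = 0.700). Cyt-c1 was at 114.6, 93.9, 106 and 116 CPM in Late and overlapped CD, with 0.14 ± 0.30 (adjusted p = 0.754). SdhA was alike, at 161, 114, 117 and 143 CPM in Late and a log2 fold change of 0.11 ± 0.21 (adjusted p = 0.727). Upper-quartile scaling turned the sign of the last 2, so no direction is given for them.

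In complex V, ATPsynG was at 107, 129.8, 212 and 216 CPM in CD and at 84.5, 61.8, 61.1 and 87.6 CPM in Late. The groups did not overlap, and ATPsynG fell by 1.17 on the log2 scale (SE 0.29, adjusted p = 0.0102). ATPsynE was at 107, 101, 135 and 160.5 CPM in CD and at 84.6, 64.2, 66.1 and 93.0 CPM in Late, also without overlap, with −0.71 ± 0.24 (adjusted p = 0.0501). ATPsynbeta was at 721, 518, 592 and 665 CPM in Late, below its lowest CD library of 746 CPM, with −0.60 ± 0.24 (adjusted p = 0.0964). ATPsynC was at 583, 445, 497 and 602 CPM in Late and overlapped CD, with −0.28 ± 0.28 (adjusted p = 0.519).

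The balance between complexes was read within each library, where a common scaling factor cancels. The summed CPM of complex IV over that of complex III was 1.54, 1.71, 1.87 and 1.87 in CD, and 1.399, 1.42, 1.17 and 1.51 in Early. It was 0.971, 1.14, 1.27 and 1.17 in Mid, and 1.04, 0.944, 0.897 and 1.14 in Late. All HSD libraries lay below all CD libraries, and the means were 1.75 ± 0.16 in CD and 1.01 ± 0.11 in Late (SD, n = 4). Complex V over complex III had means of 4.33 ± 0.17 in CD and 3.97 ± 0.28 in Early. In Mid its mean was 3.63 ± 0.41 and in Late 3.25 ± 0.22. The CD range of this ratio, 4.12 to 4.52, overlapped Early (3.71 to 4.31) and Mid (3.23 to 4.21), and Late (3.03 to 3.45) lay below it. Complex II over complex III overlapped among all 4 conditions, from 0.445 to 0.591. Within complex III the sum of UQCR-14, UQCR-6.4 and UQCR-Q over that of UQCR-C1, UQCR-C2 and Cyt-c1 was 0.398 to 0.571 in CD and 0.220 to 0.366 in the HSD libraries, again with no overlap. These ratios were chosen after the values were seen and were given no test.

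**Figure D3:**
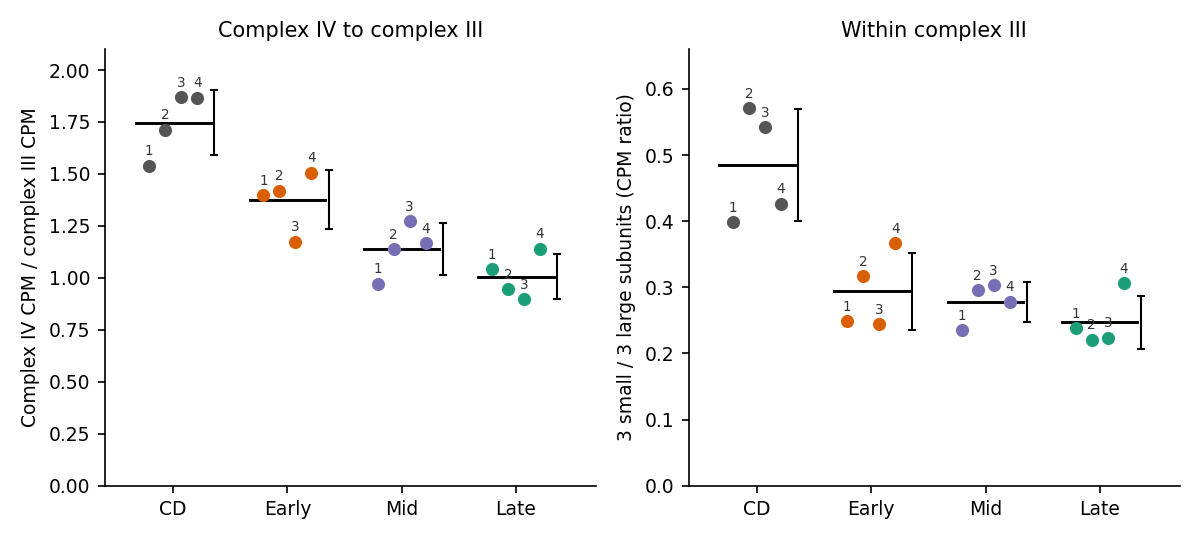
Ratio of the summed CPM of complex IV to complex III (left) and of 3 small to 3 large complex III subunits (right) in each library (points, numbered by replicate), with the mean (line) and SD (bar) of 4 libraries a condition. In both panels every CD library is above every HSD library; the left ratio is lowest in Late at a mean of 1.01.

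These differences among members ran with gene length. Exonic length, the union of a gene's annotated exons, was from 417 bases (COX7B) to 3817 bases (ATPsyndelta) among the tested members, and 19 members were under 1000 bases. Against CD at Late the median log2 fold change was −0.92 in these 19 and −0.25 in the 10 longer ones. Among all genes with a mean of at least 50 CPM, the median at Late was −0.54 in 277 genes under 1000 bases and 0.14 in 2695 longer ones, a lean of the same sign. At Early against CD the lean of these abundant genes was of the opposite sign to that of the members. Their medians there were 0.40 and 0.11, beside 1.01 in the 19 short members and 1.27 in the 10 longer ones. Members share libraries and are not independent, so these medians are a description.

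Removing a length trend from each library, an alternative added after the data were seen, gave 17 members higher at Early against CD (median 0.68). Over all genes in that fit 12.8% were called, with a median of −0.20. Removal of the trend gave 27 lower between Late and Early (median −0.94), where 25.3% of all genes were called, with a median of 0.16. Between Mid and Early it gave 16 lower, with 2.30% of all genes called. Against CD at Late, where 22.8% of all genes were called, it gave 4 lower, 24 of 29 below 0 and a median of −0.18. Of these 4, COX5A and ATPsynG were among the 8 called above, and ATPsyndelta and ATPsynbeta were not. ATPsyndelta, the member with the longest exonic length (3817 bases), moved from −0.66 to −0.97. The other 6 of the 8 lost their call, among them UQCR-14, whose log2 fold change moved from −1.19 to −0.30 (adjusted p = 0.0717). The part of library handling in this lean was not tested.

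**Figure D4:**
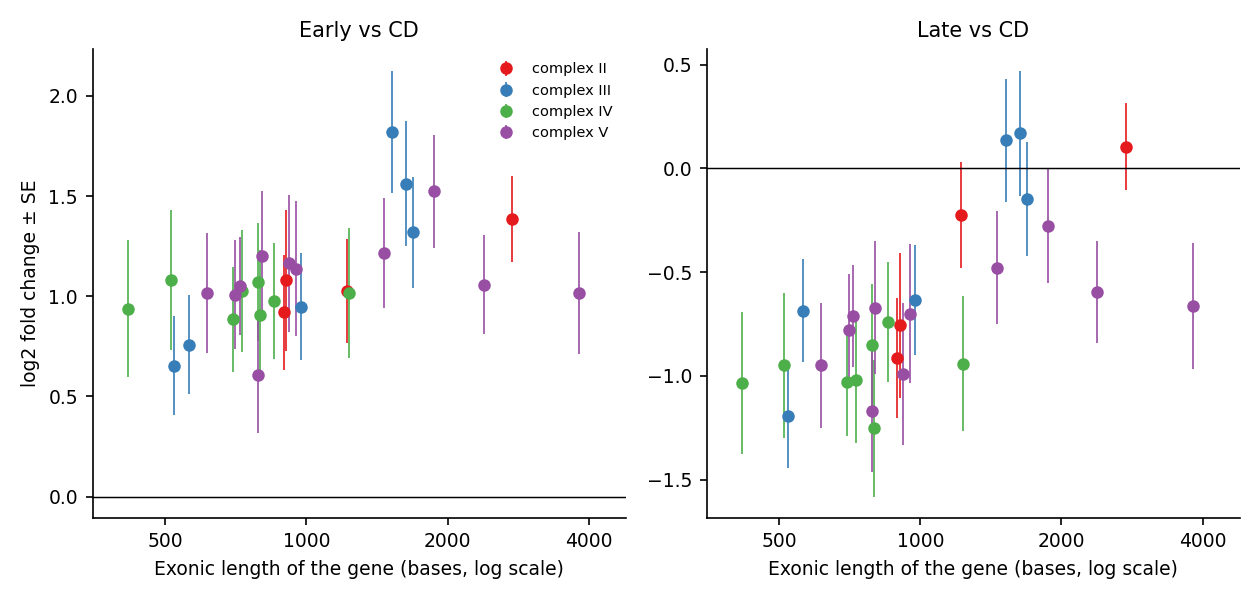
Log2 fold change ± SE against exonic length (bases, log scale) for the 29 genes, coloured by complex, at Early against CD (left) and Late against CD (right). Longer genes sit higher in both panels: at Late the 19 genes under 1000 bases have a median of −0.92, and the 10 longer ones −0.25.

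Within conditions the members varied together over the libraries. After the condition means were taken out, the median correlation of log2 CPM over the 16 libraries was 0.93 for 104 pairs in the same complex and 0.91 for 302 pairs in different complexes. SdhA followed the others least, with a median of 0.66, and UQCR-C1 was next with 0.82. All pairs share the libraries and their muscle content, and Early 1 was the highest library for all 29 members. Correlations without Early 1 and among other genes were not computed. Per kilobase of exon, mean levels over the 16 libraries were highest for ATPsynC and ATPsynbeta, at 492 and 463 CPM per kb, and lowest for ATPsyndelta, at 40.9 CPM per kb. ATPsyndelta had a mean of 156 CPM, and its exonic length of 3817 bases was the longest of the tested members.

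Set against the muscle markers, the members had another order. Their summed CPM per CPM of muscle marker was 0.119 to 0.181 in CD, 0.0911 to 0.118 in Early, 0.109 to 0.201 in Mid and 0.190 to 0.400 in Late. No Late library was as low in this ratio as any CD library, and no Early library was as high as any. The 16 muscle markers had median log2 fold changes of 1.52 at Early and −1.38 at Late against CD, beside 1.03 and −0.74 for the 29 members.

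Among other genes of the same machinery were 6 subunits of complexes II to V with other names (RFeSP, ox, levy, cype, blw and sun). Of these 6, 3 rose at Early against CD and all 6 fell between Late and Early (median −1.82). The shares over all genes were 6.44% called higher at Early against CD, 7.70% lower at Late against CD and 10.1% lower between Late and Early. RFeSP, the Rieske iron-sulphur protein of complex III, rose by 1.23 ± 0.26 at Early (adjusted p = 0.0115), and blw, the ATP synthase alpha subunit, rose by 1.39 ± 0.30 (adjusted p = 0.0135). Of 31 tested nuclear genes of complex I, the NADH dehydrogenase, 11 rose at Early (median 0.72), 11 fell at Late against CD (median −0.67) and all 31 fell between Late and Early (median −1.40). Another 6 complex I genes, paralogues ending in L, were kept apart, a choice made after the values were seen. The summed CPM of complex I without these paralogues over that of complexes II to V was 0.312 to 0.354 in Early and 0.392 to 0.460 in the other 12 libraries, without overlap.

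Of 10 tricarboxylic acid cycle genes, 7 rose at Early against CD and 9 fell between Late and Early. Their median at Late against CD was −0.34. Over all genes 6.44% were called higher at Early against CD and 10.1% lower between Late and Early. Of 12 assembly factors of complexes II to V, which build subunits into complexes, 3 rose at Early and 8 fell between Late and Early. At Late against CD 1 of the 12 fell (median −0.03), near the 7.70% of all genes called lower there. Of 5 mitochondrial carriers, 3 rose at Early and 4 fell between Late and Early. Among these was sesB, the ADP/ATP translocase, which rose by 1.30 ± 0.27 at Early (adjusted p = 0.0115) and fell by 0.79 on the log2 scale at Late against CD (SE 0.27, adjusted p = 0.0476).

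Of 10 tested regulators of mitochondrial genes, 2 rose and 0 fell at Late against CD, with a median of 0.18. Of all 11607 genes, 21.7% were called there, and 1627 were called higher. At Early and at Mid against CD 1 of the 10 rose, where 9.14% and 6.32% of all genes were called. Between Late and Early 2 rose and 1 fell, where 20.2% of all genes were called. These counts are near the shares over all genes and are no result about the group, so the genes below are described singly. The gene srl, the fly homologue of the PGC-1 coactivators that promote mitochondrial gene expression in mammals, rose by 1.39 ± 0.23 at Late against CD (adjusted p = 0.00112) and by 1.01 ± 0.23 against Early (adjusted p = 0.00685). PolrMT, the mitochondrial RNA polymerase, rose against CD at Early (0.97 ± 0.26, adjusted p = 0.0350), at Mid (1.29 ± 0.26, adjusted p = 0.0153) and at Late (1.42 ± 0.26, adjusted p = 0.00202). Between Late and Early, Ets97D, the fly GABP alpha homologue, rose by 0.66 ± 0.16 (adjusted p = 0.00999), and mtTFB2, a mitochondrial transcription factor, fell by 0.70 on the log2 scale (SE 0.19, adjusted p = 0.0183).

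The 19 genes kept apart summed to 109, 96.6, 85.4 and 21.6 CPM in CD and to 1.81, 142, 8.53 and 62.9 CPM in Early. In Mid the sums were 43.2, 21.3, 6.77 and 1.53 CPM, and in Late 1.77, 18.97, 1.88 and 77.9 CPM. These sums overlapped among all 4 conditions. Of the 18 that passed the filter for edgeR, none was called in any of the 6 comparisons, and 1 had an unadjusted p under 0.05 at Early against CD and none in the others. COX7AL2 was too low for that filter. All 18 had log2 fold changes below 0 against CD at Mid (median −2.04) and at Late (median −1.54). DESeq2's Wald test, run on all 19 without the filter, called none. It gave an unadjusted p under 0.05 to 1 gene at Early, 4 at Mid and 2 at Late against CD, and to none in the other 3 comparisons.

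The paralogues went with testis genes. The 7 libraries with the highest paralogue sums were also the 7 with the highest sums of 26 testis markers, which ran from 8.78 CPM in Late 3 to 748 CPM in Early 2. COX4L was at 12.5, 14.6, 18.3 and 2.71 CPM in CD and at 0.302, 18.99, 0.388 and 9.70 CPM in Early. In Early 1, where COX4 was at 896 CPM, COX4L thus stood at 0.0337% of its level. As a share of the main subunit sum the paralogues were between 0.00843% and 2.33% over the 16 libraries.

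**Figure D5:**
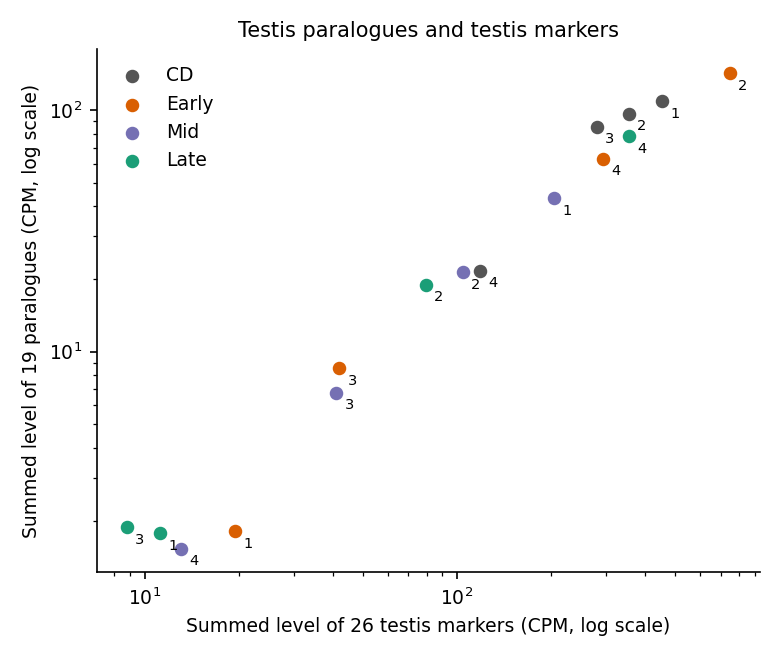
Summed CPM of the 19 paralogue genes (vertical axis, log scale) against that of 26 testis markers (horizontal axis, log scale) in each of the 16 libraries, coloured by condition and numbered by replicate. Points of 1 condition can lie far apart: Early runs from 1.81 CPM (Early 1) to 142 CPM (Early 2), and CD from 21.6 to 109 CPM.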

How the data were processed

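Stranded paired-end mRNA libraries (100-base reads) were made by the authors from pooled dissected body-wall muscle. The deposited values are whole-number read counts per gene, not normalized; the submitters' processing notes name CASAVA 1.8.4, TopHat2 2.0.11, featureCounts and the build dm3. The strand setting of the counting is not given in the sources used here, so overlapping antisense genes cannot be told apart. Identifiers were paired with current symbols through a BDGP6 annotation (15002 of 15682), which also gave exonic lengths. Its exon coordinates were used for these lengths alone, while the reads had been counted on the build dm3.

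In R 4.3.3, counts were filtered (filterByExpr, minimum count 10, minimum total 15), scaled by TMM and fitted with edgeR 4.0.16 (glmQLFit, glmQLFTest) in 1 model of 4 conditions over 16 libraries. There were 6 comparisons. The biological coefficient of variation was 0.613. Alternatives were DESeq2 size factors, upper-quartile scaling, no filter, DESeq2 1.42.0's Wald test, a replicate block, removal of the 20 most abundant genes, a fit to 8 libraries, each library left out, and, added later, a length trend over genes of at least 50 mean CPM. No 2 libraries of the same condition agreed within sampling noise. The gene group, its symbol rule and the lists were chosen with earlier results of these data known. Full statistics went to the 3 members with the highest mean CPM per complex and the 2 with the smallest adjusted p per comparison. Of the written lists, genes without a matching symbol were left out. In single sums and ratios no test was made.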

Additional observations from a re-analysis of the deposited data

Results flagged for a closer look

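Single libraries stood apart within a condition in 15 of 172 groups of 4 examined. The rule was a gap to the nearest library, divided by the range of the 4, above Dixon's critical value. For independent groups chance gives about 1 in 20. These groups share libraries and genes and are not independent, so the 15 are a description. In Early, Early 1 was the high library for SdhB (406 CPM), SdhC (349 CPM), UQCR-C1 (1209 CPM), UQCR-C2 (797 CPM), COX5A (860.03 CPM), COX5B (527 CPM), ATPsynB (1198 CPM), ATPsynD (762 CPM), ATPsyndelta (525 CPM) and ATPsyngamma (1039 CPM), and for the sums of complex II (1461 CPM) and complex III (3279 CPM). In CD, CD 4 was the high library for SdhB (137 CPM) and Cyt-c1 (147 CPM). In Late, Late 4 was the high library for COX4L as a percentage of COX4 (7.57%).

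The difference from CD changed between Early and Late in 29 of 29 members by edgeR's test of Late against Early. This is the same contrast as reported above, in which 20.2% of all genes were called.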

How the results depend on the processing

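With each scaling, filter, test and choice of libraries listed in the methods other than the length trend, all 29 members fell between Late and Early, and no member was called between Late and Mid. The count higher at Early against CD (19) was 25 with DESeq2's Wald test, 13 with DESeq2 size factors and 13 without the 20 most abundant genes. It was 12 with upper-quartile scaling, 12 without the filter, 17 with the length trend removed, 3 with 8 libraries and 5 to 23 with 1 library left out. Of all genes, 9.14% were called as reported, 13.2% by the Wald test, 4.13% with 8 libraries and 2.36% to 9.57% with 1 library left out. The count lower at Late against CD (8) was 15 with DESeq2 size factors, 18 with upper-quartile scaling and 18 with DESeq2's Wald test. It was 13 without the 20 most abundant genes, 17 with 8 libraries and 4 with the length trend removed. With 1 library left out it was 2 to 13. In these fits 13.2% to 23.3% of all genes were called. At Mid against CD the count was 1 with upper-quartile scaling, 1 with the Wald test and 0 to 1 with 1 library left out. Between Mid and Early (26) it was 0 with 8 libraries, 16 with the length trend removed and 0 to 29 with 1 library left out. In the fits that gave 0 there, edgeR called no gene of the whole table, and all 29 members had an unadjusted p under 0.05, with medians from −1.47 to −0.96. The cause was not tested. With the replicate number as a block, whose numbers only name the samples (mean correlation of same-number deviations −0.0068 over 24 pairs), the count was 12 at Early and 13 at Late against CD; the block moved no other count by more than 1.5 times.

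Of genes called over the whole table, 70.5% were higher at Early against CD, 69.2% at Mid and 64.5% at Late under TMM, against 60.8%, 55.0% and 47.3% with upper-quartile scaling.

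Of 1350 values of 15 named genes under the alternatives other than the length trend, 21 turned direction, none of them called in the fit as reported. With upper-quartile scaling these were SdhA (−0.046) and Cyt-c1 (−0.015) at Late against CD, and SdhB (−0.034), UQCR-C2 (−0.020) and ATPsynC (−0.11) at Mid against CD. ATPsynC at Mid was also −0.051 with DESeq2 size factors and −0.051 with the Wald test. With 1 library left out, the range at Late against CD was −0.013 to 0.20 for SdhA and −0.25 to 0.020 for UQCR-C2. At Mid against CD it was −0.0065 to 0.29 for UQCR-C2, −0.19 to 0.087 for ATPsynbeta, −0.093 to 0.20 for ATPsynC, −0.19 to 0.14 for ATPsyngamma and −0.23 to 0.057 for ATPsynE. Removal of the length trend, not counted among the 21, turned further values that were not called as reported. These were SdhA (−0.040) and SdhB (0.10) at Late against CD, and ATPsynE (0.21) and ATPsyngamma (0.058) at Mid against CD. Between Late and Mid it turned UQCR-14 (0.0024).

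The main subunit genes were counted in every library, so that the spread of 4 pools, more than depth, sets the errors. The paralogues, often at a few CPM, were measured less firmly.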
